A study of Rattus norvegicus with 12 samples.

Results

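The cluster of miR-132 and miR-212 is a pair of microRNA (miRNA) hairpins that lie side by side and give 4 mature arms, rno-miR-132-3p, rno-miR-132-5p, rno-miR-212-3p and rno-miR-212-5p. The rat prefix rno- is dropped from here on. The members were taken by name, as every arm of miR-132 or miR-212 among the 641 rat miRNAs listed, which gave 4. Their levels were measured by small RNA sequencing of aorta from female SHR, an inbred rat strain that develops high blood pressure. The EWH group held 6 samples that carry EWH as their treatment label, in a series whose title names egg white-derived peptides, and the control group held 6 samples given saline. The sources used here state no age, dose or duration. They also do not say whether each sample was a separate animal, so a p-value here speaks for the spread among these 12 samples, part of which may be technical.

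A miRNA is cut from a hairpin as a duplex of a 5p and a 3p arm, of which one is usually kept in the silencing complex as the guide. Bases 2 to 8 of the guide, the seed, choose the messages it represses. The miR-132 and miR-212 hairpins are known to be made as 1 primary transcript under the transcription factor CREB, which signalling by neurotrophins and by G protein-coupled receptors activates. Both miRNAs are abundant in neurons, and the 3p arms are usually taken as their guides. In vessels they are linked to the angiotensin system. In rats, infusion of angiotensin II, which constricts vessels and raises blood pressure, is reported to raise both in the aortic wall. Separately, both are reported among miRNAs that respond to activation of its type 1 (AT1) receptor. In endothelium miR-132 is known to repress Rasa1, a brake on Ras signalling.

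The 4 mature sequences, from RefSeq (build GRCr8), show which arms could act on the same messages. They are written 5′ to 3′ with the seed in capitals.
miR-132-3p: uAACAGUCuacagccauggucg
miR-212-3p: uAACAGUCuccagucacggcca
miR-132-5p: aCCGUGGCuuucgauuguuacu
miR-212-5p: aCCUUGGCucuagacugcuuacug
The 3p arms share the seed AACAGUC and the first 9 bases, and they are identical at 17 of 22 positions. The 5p arms are identical at 14 of the 22 positions compared, and their seeds differ by the substitution G4U, counted from the 5′ end with the base of miR-132-5p first. None of the other mature miRNAs in the table of 693 searched had any of these seeds. The hairpin of miR-132 shows both arms, in capitals, on the 2 sides of its loop (chr10:60522033-60522133, plus strand, GRCr8).
miR-132 hairpin: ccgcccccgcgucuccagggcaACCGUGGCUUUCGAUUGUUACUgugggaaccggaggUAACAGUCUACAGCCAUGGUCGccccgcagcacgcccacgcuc
The hairpin of miR-212 precedes it on the same strand, with 222 bases between miR-212-3p and miR-132-5p and no other RefSeq gene between the hairpins. In RefSeq's gene order both lie between the protein-coding genes Hic1 and Ovca2.

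Values were in reads-per-million (rpm) units. Library totals were inferred from the step that the values of a library share, taken as 1 read, and ran from 23887799 to 24772944 reads. What reads these totals count was not stated, and the listed miRNAs held 76.4% to 80.6% of them. One read was worth 0.0404 to 0.0419 rpm, and the Wilson intervals given for shares of reads cover counting error only, since reads without molecular identifiers are not independent molecules. The smooth muscle miRNA miR-143-3p averaged 383398 ± 36932 rpm in EWH and 395202 ± 31339 rpm in control (SD, n = 6 each). In a principal component analysis EWH 3 and EWH 4 stood apart, at 11.97 and 16.2 on a first axis with 46.3% of the variance, where the highest of the other libraries was at 4.94. No pair of libraries of 1 group agreed within sampling noise (lowest chi-square per degree of freedom 119 over 30 pairs).

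All 4 arms read low in aorta, and the 5p arms, usually taken as passengers, had more reads than the 3p arms. How evenly ligation and sequencing captured arms of different sequence was not tested, so reads may not give their relative amounts. By mean level over 12 libraries miR-132-5p stood at rank 201 of 641, miR-212-5p at 209, miR-132-3p at 253 and miR-212-3p at 353. Of the reads of the cluster, miR-132-5p held 43.7%, miR-212-5p 36.1%, miR-132-3p 17.2% and miR-212-3p 3.01%. The 4 arms summed to 12.1, 16.1 and 25.1 rpm (lowest, median and highest) in EWH, against 11.3, 20.3 and 25.01 rpm in control. The groups overlapped over nearly the whole of that range. The means of the sum were 17.1 ± 4.35 rpm in EWH and 18.5 ± 5.58 rpm in control (SD, n = 6 each).

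The 3p arm of miR-132, the arm known to repress Rasa1, had a lower mean in EWH, by a difference that lay within the replicate error. It read 1.53, 2.48 and 3.29 rpm (lowest, median and highest) in EWH, against 1.71, 3.81 and 5.93 rpm in control. All 6 EWH libraries lay below the control median, and 4 of 6 controls lay above the highest EWH library, while control 3 and control 4 lay among the EWH libraries. The means were 2.55 ± 0.669 rpm in EWH and 3.61 ± 1.55 rpm in control (SD, n = 6 each). Reads behind a value numbered 38 to 80 in EWH and 42 to 142 in control. Counting alone would give an SD of 0.324 rpm in EWH and 0.385 rpm in control, below the spread seen in either group. A limma model was fitted to log2(rpm + 1) of the 303 miRNAs that reached 1 rpm in 6 or more libraries. In it the log2 fold change was −0.33 (SE 0.23, 95% interval −0.83 to 0.18), with Benjamini-Hochberg adjusted p = 0.452. On that scale, which understates the change of low miRNAs, the interval spans 0.563-fold to 1.13-fold. Without control 2, the highest library, the log2 fold change was −0.19 (limma adjusted p = 0.657).

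The 3p arm of miR-212, which shares the seed of miR-132-3p, had the fewest reads of the cluster. It was the only arm that did not pass the filter on low values. It reached 1 rpm in 1 library, control 2. It read 0.251, 0.370 and 0.535 rpm (lowest, median and highest) in EWH, against 0.325, 0.553 and 1.503 rpm in control. These values rested on 6 to 13 reads in EWH and on 8 to 36 reads in control. All 6 EWH libraries lay below the control median, and 3 controls lay above the highest EWH library. The means were 0.376 ± 0.105 rpm in EWH and 0.701 ± 0.431 rpm in control (SD, n = 6 each). The EWH spread was no wider than the 0.124 rpm that counting gives, whereas the control spread exceeded its 0.170 rpm. Without control 2 the control mean was 0.541 ± 0.198 rpm. With no filter, over all 641 miRNAs, limma's log2 fold change was −0.28 (SE 0.14) with adjusted p = 0.301. On whole reads it was −0.91 in edgeR (adjusted p = 0.170) and −0.86 in DESeq2 (adjusted p = 0.133), so the arm was not called by any of them.

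The 5p arms had nearly equal means in both groups. MiR-132-5p, the arm with the most reads, stood at 5.57, 7.59 and 11.7 rpm (lowest, median and highest) in EWH, against 4.57, 8.37 and 10.2 rpm in control. Its highest library was EWH 4, the only EWH library above all controls. Its means were 7.85 ± 2.14 rpm in EWH and 7.73 ± 2.25 rpm in control (SD, n = 6 each), and the log2 fold change was 0.03 (SE 0.21, 95% interval −0.43 to 0.49; limma adjusted p = 0.932). MiR-212-5p, the other 5p arm, read 4.68, 5.99 and 9.55 rpm in EWH, against 3.66, 6.84 and 8.39 rpm in control. Here too EWH 4 lay above all controls and the other 5 EWH libraries among them. The means of miR-212-5p were 6.37 ± 1.70 rpm in EWH and 6.49 ± 1.82 rpm in control (SD, n = 6 each), with a log2 fold change of −0.01 (SE 0.20, 95% interval −0.45 to 0.43; limma adjusted p = 0.980). The sign of both 5p differences turned with the scaling or with a library left out, and the limma intervals still allow changes of 0.730-fold to 1.41-fold. Without EWH 3 and EWH 4 together, the log2 fold change was −0.13 for miR-132-5p (limma adjusted p = 0.759), −0.11 for miR-212-5p (0.785) and −0.39 for miR-132-3p (0.477).

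**Figure D1:**
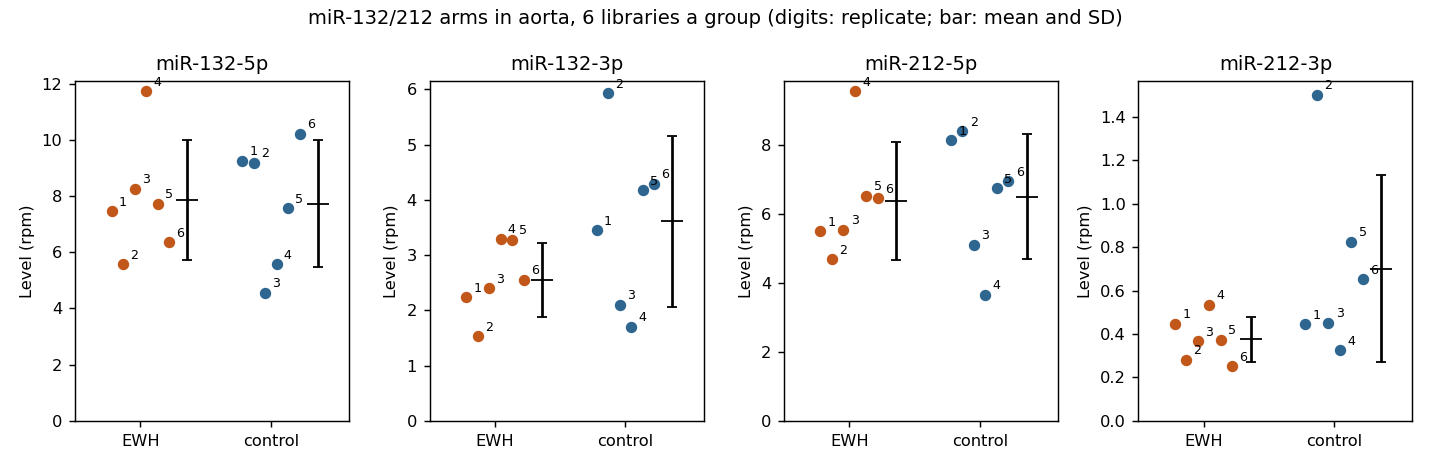
Level of each arm in rpm (vertical axes, each starting at 0) in 6 EWH and 6 control libraries; points are libraries with their replicate number, and bars give the mean and SD. The groups overlap in all 4 arms, control 2 is highest in both 3p arms, at 5.93 and 1.503 rpm, and EWH 4 is highest in both 5p arms, at 11.7 and 9.55 rpm.

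Of the 3 arms that passed the filter limma called 0, beside 0 of all 303 tested miRNAs (0%), where 70 had an unadjusted p under 0.05. On whole reads edgeR called 40 (13.2%) and DESeq2 63 (20.8%) of the 303, and neither called an arm of the cluster. Adjusted p for the 3 arms ran from 0.300 to 0.986 in edgeR's quasi-likelihood test and from 0.255 to 0.990 in DESeq2. The groups overlapped in every arm, where 5 of the 303 (1.65%) had groups that did not overlap. The median log2 fold change of all tested miRNAs was −0.06, and 14.5% of them lay below miR-132-3p, 58.4% below miR-212-5p and 62.0% below miR-132-5p. In bulk aorta, fewer cells of a type and less of a miRNA per cell cannot be told apart.

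**Figure D2:**
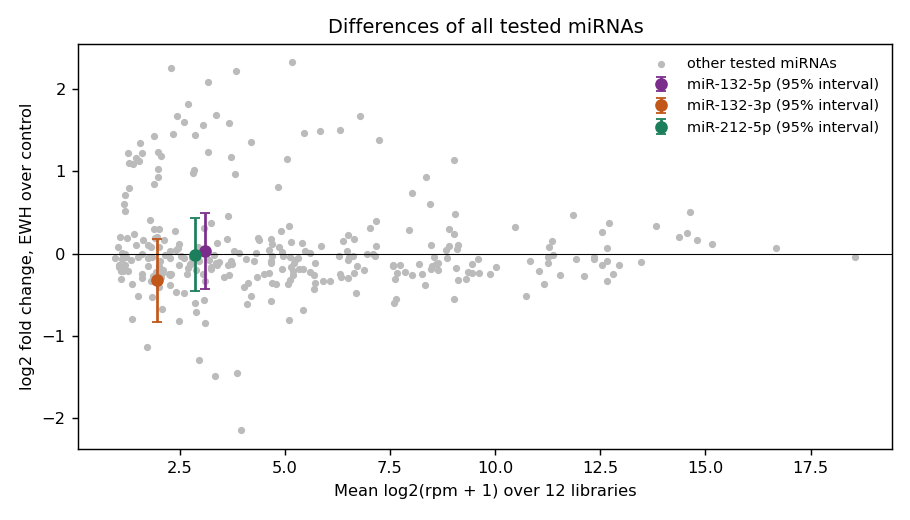
Log2 fold change of EWH over control (vertical axis) against mean log2(rpm + 1) over 12 libraries (horizontal axis) for 303 tested miRNAs in grey and the 3 tested arms in colour, with 95% intervals. The interval of each arm crosses 0, with point values of 0.03 for miR-132-5p, −0.33 for miR-132-3p and −0.01 for miR-212-5p.

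The balance of arms compares both products of 1 hairpin within a library, so the library total cancels in the shares of reads. The log2 ratio fitted below adds 1 rpm to each arm. There the total cancels only in part, and differences of low arms are understated. The 5p arm had more reads than the 3p arm in 12 of 12 libraries for each hairpin, that is in 6 of 6 EWH and 6 of 6 control libraries. Among the 67 hairpins with both arms tested, the 5p arm had the higher mean in 43 (64.2%). For miR-132 the 5p arm led by 2.35-fold to 3.63-fold in EWH (median 3.38) and by 1.55-fold to 3.26-fold in control (median 2.28). For miR-212 it led by 12.3-fold to 25.7-fold in EWH (median 17.0) and by 5.58-fold to 18.2-fold in control (median 10.9).

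The 3p share of the miR-132 reads was 21.6%, 22.8% and 29.8% (lowest, median and highest) in EWH, against 23.5%, 30.5% and 39.2% in control. The libraries EWH 1 to EWH 4 lay below all controls, and EWH 5 and EWH 6 lay among them. Means were 24.6% ± 3.64 in EWH and 31.1% ± 5.70 in control (SD, n = 6 each). The log2 ratio of 3p over 5p, taken as log2((3p + 1)/(5p + 1)) and fitted with limma over the 67 hairpins, differed by −0.36 (SE 0.15, 95% interval −0.68 to −0.04), with unadjusted p = 0.030 and Benjamini-Hochberg adjusted p = 0.194. It was not called, and neither was any other of the 67 hairpins (0%), of which 13 had an unadjusted p under 0.05 and the smallest adjusted p was 0.0908. Leaving out 1 library at a time, the difference ran from −0.42 to −0.28, and it was −0.26 without EWH 3 and EWH 4 together (limma adjusted p = 0.606).

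For miR-212 the 3p share was 3.75%, 5.56% and 7.53% (lowest, median and highest) in EWH, against 5.21%, 8.38% and 15.2% in control. The lowest control lay among the EWH libraries and the other 5 controls above all of them. The 95% Wilson interval of a single share was wide, from 1.73% to 7.94% in EWH 6 and from 11.2% to 20.3% in control 2. Means were 5.65% ± 1.24 in EWH and 9.37% ± 3.38 in control (SD, n = 6 each). With no filter on low values, over 222 hairpins, the difference in the log2 ratio was −0.26 (SE 0.16; limma adjusted p = 0.397). That ratio adds 1 rpm to each arm, more than miR-212-3p averaged in either group (0.376 rpm in EWH, 0.701 rpm in control). It therefore understates the difference in share.

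**Figure D3:**
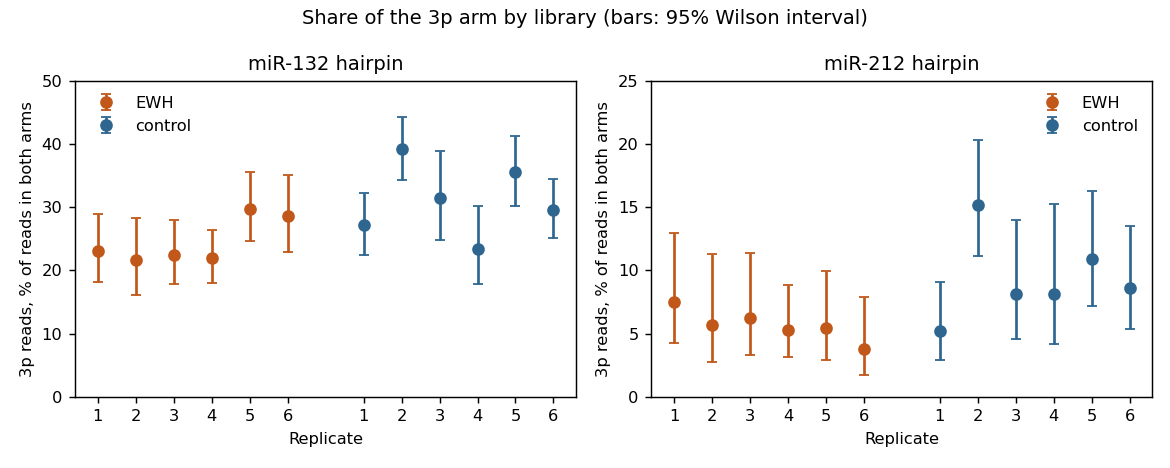
Percent of the reads of each hairpin that fell in its 3p arm (vertical axis, different ranges in the panels), by library (horizontal axis, replicate number), for 6 EWH and 6 control libraries; bars are 95% Wilson intervals and cover counting error only. For miR-132, EWH 1 to EWH 4 sit between 21.6% and 23.1%, and control 2 is highest in both panels, at 39.2% and 15.2%.

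Across the 12 libraries the arms varied together, though some miRNAs outside the cluster followed the 3p arms more closely, as given below. Among the 6 pairs of arms, the closest by rank were miR-212-5p with each arm of miR-132. Between the 5p arms of the hairpins Pearson's r on log2(rpm + 1) was 0.82 (permutation p = 0.0012, or 0.0037 after Benjamini-Hochberg adjustment over 6 pairs) and Spearman's rho was 0.89 (permutation p = 2.4e-04, adjusted 7.2e-04). Without the 2 libraries farthest from the median of miR-132-5p, EWH 4 and control 3, r was 0.80. Within groups r was 0.85 in EWH (exact permutation p = 0.051) and 0.81 in control (exact permutation p = 0.056). The level ratio of miR-132-5p over miR-212-5p was 1.24 ± 0.171 in EWH and 1.21 ± 0.241 in control (SD, n = 6 each).

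Between the 3p arms r was 0.84 (permutation p = 2.9e-04, adjusted p = 0.0017) and rho 0.73 (permutation p = 0.0098, adjusted 0.015), and r was 0.72 without EWH 2 and control 2. Within groups r was 0.53 in EWH (exact permutation p = 0.290), where miR-212-3p rested on at most 13 reads, and 0.87 in control (exact permutation p = 0.018, or 0.054 adjusted over the 6 pairs). Their level ratio, miR-132-3p over miR-212-3p, was 7.01 ± 2.03 in EWH and 5.53 ± 1.38 in control (SD, n = 6 each). Between miR-132-3p and miR-212-5p r was 0.80 (permutation p = 0.0019, adjusted p = 0.0039) and rho 0.90 (permutation p = 1.5e-04, adjusted 7.2e-04), and r was 0.77 without EWH 2 and control 2. Between both arms of miR-132 r was 0.71 (permutation p = 0.011, adjusted p = 0.016) and rho 0.78 (permutation p = 0.0042, adjusted 0.0084), with r of 0.70 without EWH 2 and control 2.

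The 2 remaining pairs were weaker, and both include miR-212-3p. Its r with miR-212-5p was 0.53 (permutation p = 0.077, adjusted p = 0.093), with rho 0.64 (permutation p = 0.030, adjusted 0.036) and r 0.52 without control 2 and control 5. With miR-132-5p r was 0.44 (permutation p = 0.154, adjusted p = 0.154), with rho 0.50 (permutation p = 0.105, adjusted 0.105) and r 0.58 without EWH 4 and control 3. All 12 values of an arm share their library and its total with those of the other arms.

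**Figure D4:**
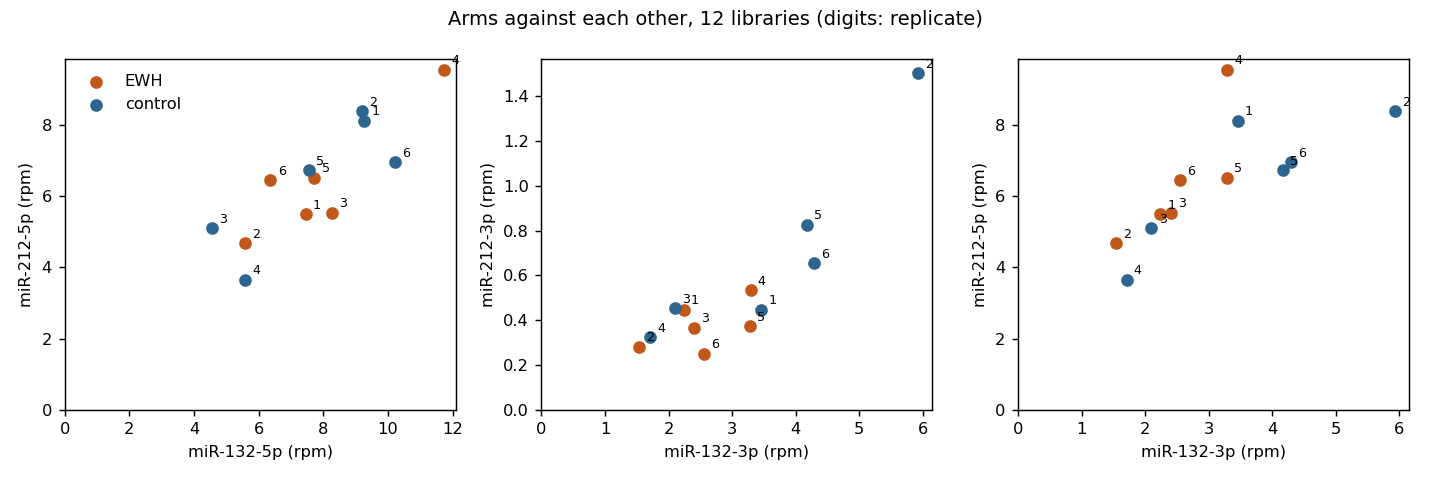
Level in rpm of miR-212-5p against miR-132-5p, of miR-212-3p against miR-132-3p, and of miR-212-5p against miR-132-3p, 1 point a library with its replicate number, EWH in orange and control in blue. The points of both groups run along 1 upward band in the left panel (r = 0.82 on log2 values), and control 2 lies apart at the top right of the middle panel.

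The miRNAs whose order over the 12 libraries was most like that of miR-132-3p, by Spearman's rho among the 300 other tested miRNAs, were miR-29a-3p (0.92), miR-598-3p (0.83), miR-92a-3p (0.82), miR-425-5p (0.81) and miR-3074 (0.80). For miR-212-3p they were miR-339-5p (0.89), miR-106b-3p (0.85), miR-374-5p (0.83), miR-30b-5p (0.83) and miR-3589 (0.81). The lists of the 3p arms did not share a miRNA. The 5 most like miR-212-5p again held miR-598-3p (0.83), miR-29a-3p (0.81) and miR-425-5p (0.80). MiR-598-3p (0.85) also led the 5 most like miR-132-5p. These lists leave out the arms of the cluster. By rho, miR-29a-3p was closer to miR-132-3p than any arm was (highest 0.90, miR-212-5p). All 5 listed for miR-212-3p were closer to it than any arm was (highest 0.73, miR-132-3p). For each 5p arm an arm of the cluster was closest. These were miR-212-5p for miR-132-5p (0.89) and miR-132-3p for miR-212-5p (0.90). MiR-29a-3p, which is known to repress collagens and other matrix genes, averaged 568.5 ± 68.8 rpm in EWH and 709 ± 112 rpm in control. MiR-339-5p averaged 13.4 ± 2.80 rpm in EWH and 17.9 ± 2.88 rpm in control (SD, n = 6 each for both). These rho values describe libraries that share depth and tissue makeup, and they carry no test.

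Those of the other miRNAs linked to the angiotensin system that passed the filter were at slightly lower means in EWH, by amounts that no test called. Of 14 chosen, 13 were listed and 10 passed the filter. All 10 were at lower means in EWH. Their log2 fold changes had a median of −0.14 and ran from −0.38 to −0.04, and limma, edgeR and DESeq2 each called 0 of them. Without EWH 3 and EWH 4 together 9 of the 10 were lower. The 10 are not independent, since they hold miR-143-3p with miR-145-5p and miR-221-3p with miR-222-3p, each pair from 1 cluster. Of the listed miRNAs below the filter, miR-129-2-3p and miR-483-5p had higher means in EWH. MiR-483-5p averaged 0.145 rpm in EWH and 0.130 rpm in control. MiR-483-3p was lower in EWH, at 0.171 rpm against 0.192 rpm. Among all 303 tested miRNAs 182 had a lower mean, with a median of −0.06. MiR-29b-3p, reported beside miR-132 and miR-212 after activation of the AT1 receptor, averaged 24.6 ± 7.37 rpm in EWH and 26.0 ± 5.24 rpm in control. MiR-129-2-3p, from the same reports, averaged 0.582 ± 0.592 rpm in EWH and 0.157 ± 0.194 rpm in control and was too low to test. MiR-155-5p, known to repress the AT1 receptor in human cells, averaged 50.9 ± 12.6 rpm in EWH and 54.4 ± 9.64 rpm in control. The lowest log2 fold change of the 10 tested was that of miR-221-3p, a miRNA of proliferating smooth muscle, at −0.38, with 293 ± 71.9 rpm in EWH and 375 ± 73.1 rpm in control (SD, n = 6 each for these 4), with limma adjusted p = 0.262.

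Since miR-132 and miR-212 are abundant in neurons, the levels of the arms were set beside miRNAs known from neurons and glia, and beside markers of the other cell types an aorta sample could hold. Of 12 neuron and glia markers 7 passed the filter, and 6 of these were at higher means in EWH. Limma called 0 of the 7, edgeR 3 (miR-338-3p, miR-338-5p and miR-9a-5p) and DESeq2 5. Of all 303 tested miRNAs 121 were at higher means in EWH, and edgeR called 13.2% and DESeq2 20.8%. The median log2 fold change of the 7 markers was 1.47, with a range of −0.13 to 2.22 and miR-7a-5p at 0.18. Those of the tested arms ran from −0.33 to 0.03, on a scale that understates the change of low miRNAs. Without EWH 3 and EWH 4 together the median of the markers was 0.90, with 5 of 7 higher. The 12 markers summed to 720, 1280 and 2262 rpm (lowest, median and highest) in EWH, against 699.7, 971 and 1490 rpm in control. Both of the libraries that stood apart held the highest EWH sums, EWH 4 at 2262 rpm and EWH 3 at 1746 rpm, while EWH 1 (834 rpm) and EWH 2 (720 rpm) lay below the control median.

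MiR-128-3p made up much of that sum, 56.0% ± 16.7 in EWH and 74.7% ± 6.84 in control (SD, n = 6 each), and was the 1 tested marker at a lower mean in EWH, at 683 ± 126 rpm in EWH and 770 ± 264 rpm in control. The other 11 markers summed to 169.9, 509 and 1437 rpm (lowest, median and highest) in EWH, against 149, 241 and 422 rpm in control. MiR-124-3p, the most neuron-specific of them, read 0.161 to 4.98 rpm in EWH and 0.0406 to 0.626 rpm in control, and miR-219a-2-3p read at most 0.123 rpm in EWH and 0 in all controls, which allows up to 0.125 rpm. Epithelial markers lay the other way: 5 of 6 tested were lower in EWH and their median difference was −0.72 on the log2 scale, and edgeR called miR-200a-3p and miR-200b-3p, DESeq2 also miR-200c-3p, and limma 0. Their sum was 75.1 to 195 rpm in EWH and 59.8 to 711 rpm in control, highest in control 6 and control 1. Of all 303 tested miRNAs 182 were lower in EWH and 121 higher. In the lists for leukocytes (2 of 7 tested higher), erythrocytes (2 of 4), endothelium (0 of 2) and smooth muscle (1 of 4) limma, edgeR and DESeq2 each called 0.

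Within each group, libraries high in the cluster were mostly those high in the summed neuron and glia markers, but in EWH other lists followed the same libraries. EWH 4 was highest of EWH in all 4 arms and in the summed markers of neurons and glia (2262 rpm), leukocytes (849 rpm) and endothelium (6913 rpm), and lowest in those of smooth muscle (331968 rpm). EWH 2 was lowest in 3 arms and in the neuron and glia sum, and highest in smooth muscle (428677 rpm). Control 2 was highest of the controls in the neuron and glia sum (1490 rpm) and in 3 arms, and control 4 was lowest in that sum (699.7 rpm) and in 3 arms.

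Over all 12 libraries r on the log2 scale with the neuron and glia sum was 0.73 for miR-132-5p (permutation p = 0.0074) and 0.70 for miR-212-5p (permutation p = 0.012), with rho 0.73 (permutation p = 0.0089) and 0.69 (permutation p = 0.015). Each of these r values had an adjusted p of 0.141, and each rho 0.181, by Benjamini-Hochberg over 24 relations of 4 arms with 6 marker lists. Without EWH 4 and control 4 r was 0.56 and 0.43. For the 3p arms r was 0.47 for miR-132-3p (permutation p = 0.126, rho 0.53 with p = 0.080) and 0.22 for miR-212-3p (permutation p = 0.515, rho 0.29 with p = 0.365), and 0.42 and 0.18 without EWH 4 and control 4. With the other 5 lists r ran from −0.52 to 0.44 over the 4 arms, and none of the 24 relations passed. With the summed 11 markers other than miR-128-3p, r was 0.58 for miR-132-5p (permutation p = 0.047, adjusted p = 0.189 over the 4 arms). It was 0.49 for miR-212-5p (permutation p = 0.109), 0.22 for miR-132-3p (permutation p = 0.489) and −0.04 for miR-212-3p (permutation p = 0.904). Without EWH 3 and EWH 4 these values were 0.39, 0.49, 0.44 and 0.07 in the same order.

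Inside the groups miR-132-3p followed the neuron and glia sum about as closely as the 5p arms. In EWH r was 0.80 for miR-132-3p, 0.86 for miR-132-5p, 0.80 for miR-212-5p and 0.52 for miR-212-3p (exact permutation p 0.056, 0.028, 0.040 and 0.296). In control it was 0.75, 0.71, 0.75 and 0.64 in the same order (exact permutation p 0.096, 0.125, 0.088 and 0.157). With miR-128-3p left out of the sum, r in EWH was 0.76, 0.85, 0.74 and 0.52 (unadjusted exact permutation p 0.028 to 0.289). In control r with that sum was 0.68, 0.57, 0.56 and 0.53 (unadjusted exact permutation p 0.128 to 0.276). In EWH the leukocyte sum gave r of 0.80 for miR-132-3p, 0.68 for miR-132-5p and 0.84 for miR-212-5p (exact permutation p 0.049, 0.131 and 0.024), and the smooth muscle sum gave −0.85, −0.81 and −0.91 (exact permutation p 0.019, 0.040 and 0.0042). In control the same arms gave −0.17, −0.26 and 0.23 with leukocytes and 0.22, 0.11 and −0.21 with smooth muscle (exact permutation p 0.606 to 0.815). The smooth muscle sum took 331968 to 428677 rpm of a library in EWH. All rpm values of a library share 1 total, so part of a negative relation with so large a sum is built in. The size of that part was not tested. No relation inside a group passed adjustment over its 24 (lowest adjusted p 0.10 in EWH and 0.942 in control, from exact permutation). The part of nervous tissue, or of any other cell type, in the levels of the arms was not tested.

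**Figure D5:**
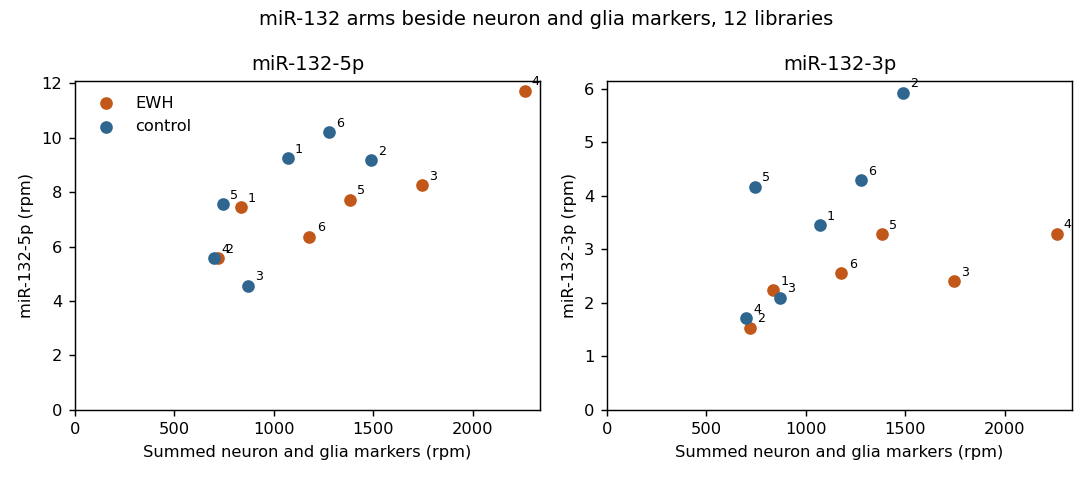
Level of miR-132-5p and of miR-132-3p in rpm (vertical axes) against the summed level of 12 neuron and glia markers in rpm (horizontal axes), 1 point a library with its replicate number, EWH in orange and control in blue. EWH 4 has the highest marker sum, 2262 rpm, and the highest miR-132-5p, 11.7 rpm, whereas its miR-132-3p of 3.29 rpm lies below 4 of the controls.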

How the data were processed

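The table deposited by the authors gives 641 mature miRNAs in 12 libraries as reads-per-million (RPM) values. Per the labels' protocols, Trizol RNA was ligated to adaptors and inserts of 15 to 35 nt were kept. The table is named for TPM, but in each library every value was a whole multiple of 1 step, within 0.01 read for 100% of the values, so no length term enters and whole reads could be recovered. The build was rn6, per the submitters' processing notes. The aligner, the counter and the handling of reads shared by similar miRNAs were not stated.

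The members and lists were chosen with earlier results of these data known. A miRNA was tested if it reached 1 rpm in 6 or more libraries. Two-sided tests used limma 3.58.1 with a variance trend on log2(rpm + 1), under R 4.3.3. P-values were adjusted by Benjamini-Hochberg over all tested miRNAs, with a threshold of 0.05. Arm ratios were fitted likewise over hairpins. EdgeR 4.0.16 and DESeq2 1.42.0 were run on the recovered reads. Correlations used 100000 permutations, or all of them within groups; those with marker sums, and the sum without miR-128-3p, were added after the data were seen. Named were the 4 arms, the 5 miRNAs most like each 3p arm, and list members. Some miRNAs most like the 5p arms were also named, outside the plan. Neighbours by RefSeq order were mir-195, at 136 ± 17.5 rpm in EWH and 137 ± 21.7 rpm in control for its 5p arm (SD, n = 6 each), and mir-6326, not used here. Procedures were tested on simulated counts. Python 3.11.15, scipy 1.17.1 and matplotlib 3.10.9 drew figures and ran permutations.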

Additional observations from a re-analysis of the deposited data

How the results depend on the processing

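No arm of the cluster was called under any of 22 alternatives for the 3 tested arms or of 19 for the arm ratio of miR-132, and miR-132-3p and the ratio kept their sign in all of them. The log2 fold change of miR-132-3p ran from −0.50 (quantile normalization) to −0.17 (pseudocount of 5), and from −0.47 to −0.19 with 1 library left out, with limma adjusted p no lower than 0.126. The ratio ran from −0.45 (pseudocount of 0.1) to −0.19 (pseudocount of 5). The sign of miR-132-5p turned under quantile normalization (−0.024) and without EWH 3 and EWH 4 together (−0.13, chosen after seeing the data), and ran from −0.088 to 0.114 with 1 library left out. That of miR-212-5p turned under median-of-ratios scaling (0.019), in edgeR (0.0086) and in DESeq2 (0.0023), and ran from −0.141 to 0.061 with 1 library left out. The cause was not tested. Over all tested miRNAs the count of calls was 0 in limma, 8 after quantile normalization, 1 without EWH 3 and EWH 4 together (miR-27a-5p), 40 in edgeR and 63 in DESeq2, and 0 to 24 with 1 library left out (24 without EWH 2). At a filter of 10 rpm no arm of the cluster was left to test. The replicate number as a block gave 0 calls and a log2 fold change of −0.33 (SE 0.27) for miR-132-3p. No pairing of the libraries by number was seen. Deviations of same-numbered libraries correlated at −0.50 to 0.31, and 1 of 6 EWH libraries was closest to the control of its own number. A pairing of small effect could be missed by such a check. At 6 to 36 reads a library, depth limits miR-212-3p most.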
